A study of Mus musculus with 9 samples.

Results

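A set of 10 genes of prostaglandin and leukotriene synthesis was followed in cultured mouse astrocytes given the intracellular part of a Notch ligand or of a Notch receptor. They are Pla2g4a, Ptgs1, Ptgs2, Ptges, Ptgis, Ptgds, Alox5, Alox5ap, Ltc4s and Hpgd. They were taken as a named list of 10 genes out of 20076 with a value in at least 1 of the authors' 2 deposited tables, 3 by the symbol in the tables and 7 by gene ID. The list was selected on pathway membership and on the deposited ratios, in which Ltc4s was known to be strongly lower under both labels, so every value below is a description and none is a test. All cells were Ink4a-/- murine astrocytes from brain, lacking the tumour suppressor product that restrains the cell cycle, and all 3 groups had been transfected with a pcDNA puro plasmid. One group was labelled as given pcDNA HA-JICD1 puro, which encodes the HA-tagged intracellular part of the ligand Jagged1. One group received pcDNA NICD puro, which encodes the intracellular part of Notch1, a nuclear activator of transcription. The control group received the plasmid with no insert. Each group had 3 RNA-seq libraries, 9 in all. The sources used here do not say how many animals, cultures or clones stand behind the libraries.

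Prostaglandins and leukotrienes are short-lived lipid signals made from arachidonic acid, which the phospholipase encoded by Pla2g4a frees from membranes. The cyclooxygenases of Ptgs1 and Ptgs2 turn it into a common precursor, from which Ptges makes prostaglandin E2, Ptgds makes prostaglandin D2 and Ptgis makes prostacyclin, and Hpgd begins the breakdown of the products. In the other branch the lipoxygenase of Alox5, helped by the membrane protein of Alox5ap, makes leukotriene A4, and Ltc4s joins that to glutathione. In brain, astrocytes can induce Ptgs2 and Ptges in inflammation, Ptgds is abundant in the membranes around the brain and in oligodendrocytes, and the leukotriene genes are best known from blood-derived cells.

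The authors' deposited tables compare each construct with control and list, for every gene, 1 log2 ratio and 1 score that runs from 0 to 1. Values of single libraries were not used here. Ratios therefore come without a replicate error, standard error or p-value, and the depth behind them is unknown. A gene is called scored where its score reached 0.8, which is no level of significance. Higher and lower name the direction of a ratio only. As bulk ratios, they cannot tell fewer cells of a kind from less RNA per cell.

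The construct genes and the cell markers bear on how the groups are named. In the authors' deposited tables Jag1 had a log2 ratio of -1.39 (score 0.759) in the JICD1 comparison and 1.36 (0.819) in the NICD1 comparison, and Notch1 had 1.33 (0.735) and 1.77 (0.815). Jag1 lay below 0 in the JICD1 comparison but was not scored there, and whether the construct's transcript counts toward it is not given. Its ratio therefore cannot decide whether the JICD1 label is right. The group is called the libraries labelled JICD1, and values given under the JICD1 label are theirs. Every direction drawn from them rests on that label. Of 12 astrocyte markers, 11 had a ratio and Aqp4 had none. Gfap had log2 ratios of -1.36 (score 0.242) under the JICD1 label and -1.52 (0.261) with NICD1 in the authors' deposited tables. It was scored in neither. Barely measured genes of equal ratio, described below, had scores of 0.179 and 0.183, so how well Gfap was measured is unknown.

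Of the 10 genes, 5 were scored in at least 1 comparison, and the 250 bases before the start of each are shown because the results turn on them. The sequences are RefSeq promoters of the GRCm38.p6 build; the deposited tables hold no coordinates, and mm9 is the build the submitters name. Of the 10 genes, 8 had a promoter in that table. Capitals mark every match, on either strand, to 1 of 4 motifs: TGGGAA (the core bound by RBPJ, the DNA-binding partner of NICD), TGANTCA (AP-1), TTNNGCAA (C/EBP) and CACGTG (an E-box).
Ltc4s, chr11:50238533-50238782, minus strand: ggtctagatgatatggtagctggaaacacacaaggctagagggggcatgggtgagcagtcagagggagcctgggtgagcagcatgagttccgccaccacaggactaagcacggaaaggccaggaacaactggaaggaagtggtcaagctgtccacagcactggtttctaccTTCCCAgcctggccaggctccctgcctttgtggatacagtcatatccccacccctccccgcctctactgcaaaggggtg
Ptgs1, chr2:36230176-36230425, plus strand: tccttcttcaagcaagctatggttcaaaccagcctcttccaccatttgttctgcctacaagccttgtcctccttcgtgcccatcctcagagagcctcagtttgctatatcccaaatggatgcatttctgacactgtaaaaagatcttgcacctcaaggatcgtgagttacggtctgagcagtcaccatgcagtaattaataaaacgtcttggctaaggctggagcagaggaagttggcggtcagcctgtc
Ptgs2, chr1:150099781-150100030, plus strand: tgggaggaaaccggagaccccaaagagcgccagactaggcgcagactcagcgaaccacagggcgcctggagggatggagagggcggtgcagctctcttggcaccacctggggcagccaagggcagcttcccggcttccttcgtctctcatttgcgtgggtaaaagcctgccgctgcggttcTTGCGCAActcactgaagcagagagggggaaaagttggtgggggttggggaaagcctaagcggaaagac
Pla2g4a, chr1:149961291-149961540, minus strand: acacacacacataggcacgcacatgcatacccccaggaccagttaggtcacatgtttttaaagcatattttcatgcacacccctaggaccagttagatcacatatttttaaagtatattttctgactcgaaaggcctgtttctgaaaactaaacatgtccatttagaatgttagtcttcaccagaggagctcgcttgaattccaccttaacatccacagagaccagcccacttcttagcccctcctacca
Ptgds, chr2:25469750-25469999, minus strand: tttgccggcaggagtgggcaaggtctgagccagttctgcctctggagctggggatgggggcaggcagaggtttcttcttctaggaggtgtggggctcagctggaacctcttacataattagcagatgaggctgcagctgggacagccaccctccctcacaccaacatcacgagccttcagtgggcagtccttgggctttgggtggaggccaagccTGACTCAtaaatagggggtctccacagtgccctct
A match to the RBPJ core was found for Ltc4s, starting 79 bases before the gene, and for Ptges, at 140 bases. Of all 32851 promoters of the same length, 21.6% hold that motif. The C/EBP motif, present in 9.56% of promoters, was found only for Ptgs2 among the 8, at 69 bases and read alike on both strands as TTGCGCAA. Ptgds alone of the 8 held an AP-1 match, TGACTCA, at 35 bases, against 6.75% of all promoters. None of the 8 held the E-box that 6.02% of all promoters hold, and the Ptgs1 and Pla2g4a sequences held no match to any of the motifs. Their GC content was 57.6% for Ltc4s, 48% for Ptgs1, 61.6% for Ptgs2, 43.2% for Pla2g4a and 58.4% for Ptgds, beside a median of 52.4% over all promoters. For Pla2g4a, which has a pair of listed starts, the first in the table is shown.

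In the libraries labelled JICD1, the genes that differed most from control were the leukotriene C4 synthase gene Ltc4s and the cyclooxygenase gene Ptgs1, both lower, and the prostaglandin D2 synthase gene Ptgds, higher. Of the 9 genes with a ratio, 3 were scored, 1 higher and 2 lower, where 2.81% of all 18971 genes were scored (1.07% higher and 1.74% lower). Because the list was chosen with these values in view, nothing is read from that share. Of the 9, 6 lay above 0, as did 54.5% of all genes, and the median was 0.63, beside 0.05 for all genes. With NICD1, 4 of 9 were scored, 2 higher (Pla2g4a and Ptgs2) and 2 lower (Ltc4s and Ptgs1), where 2.61% of 19287 genes were scored (1.64% higher and 0.97% lower). Of these 9, 7 lay above 0, as did 48.5% of all genes, with a median of 1.09 beside -0.02 for all genes. Without genes that were barely measured, described below, the medians were 0.35 under the JICD1 label and 0.47 with NICD1.

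**Figure D1:**
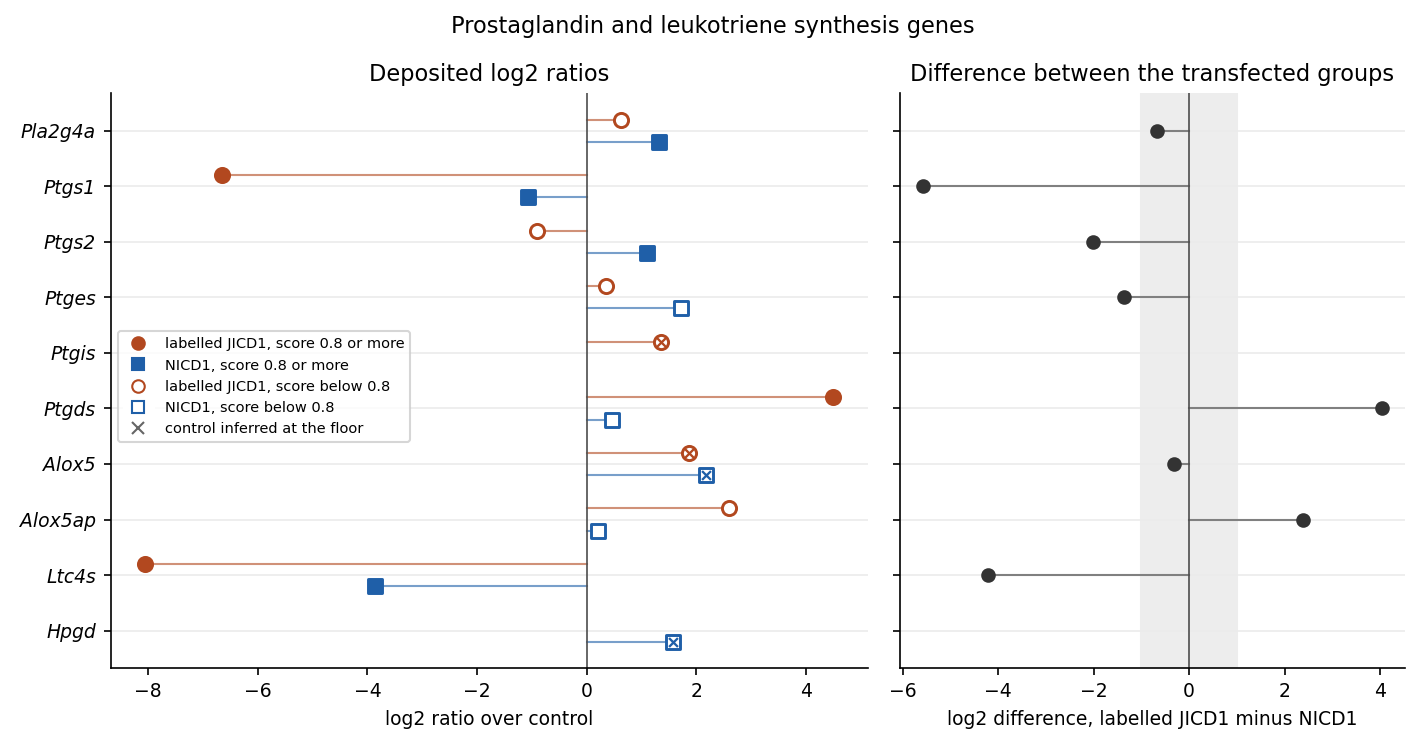
Log2 ratio over control of each gene (left; circles labelled JICD1, squares NICD1) and the difference of the log2 ratios, JICD1 minus NICD1 (right; shaded within 1). Filled marks have a score of 0.8 or more, and crosses mark a control inferred to be at the lowest value. Ltc4s and Ptgs1 reach -8.06 and -6.64 under the JICD1 label, and Ptgds reaches 4.50.

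Release of arachidonic acid is the first step. Pla2g4a, the cytosolic phospholipase gene, stood in the authors' deposited tables at a log2 ratio of 0.63 (score 0.723) under the JICD1 label and 1.31 (score 0.833) with NICD1, where it was 2.48-fold higher than control. Its score with NICD1 was higher than that of 98% of the 300 genes nearest to it in size of ratio. Both ratios lay above 0, and it was scored with NICD1.

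The cyclooxygenase genes went apart with NICD1, and both lay below 0 under the JICD1 label. Ptgs1, the form that many tissues keep on at rest, stood in the authors' deposited table at a log2 ratio of -6.64 (score 0.996) under the JICD1 label, 99.99-fold below control. With NICD1 the authors' deposited table gave it -1.07 (score 0.815), which is 2.10-fold lower. It was thus lower under both labels and scored in both, by very different amounts. Ptgs2, the form induced by cytokines and growth factors, had -0.91 under the JICD1 label in the authors' deposited table, 1.88-fold lower, and its score of 0.781 fell short of the threshold. With NICD1 it had 1.09 (score 0.819) in the authors' deposited table and was 2.13-fold higher. The Ptgs1 and Ptgs2 ratios with NICD1 were therefore close in size and opposite in direction, and both scores lie just inside the threshold, with that of Ptgs2 under the JICD1 label just outside.

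Of the enzymes that turn the common precursor into single prostaglandins, Ptgds stood apart. Its log2 ratio in the libraries labelled JICD1 was 4.50 (score 0.929) in the authors' deposited table, a value 22.7 times that of control, and its score was higher than that of 92.3% of the 300 genes nearest in size of ratio. With NICD1 the authors' deposited table gave 0.47 (score 0.256), and that score was higher than that of 23.7% of the nearest 300 genes. The level of the control that both comparisons share is unknown, so the fold of Ptgds is given as deposited. Ptges, the inducible prostaglandin E2 synthase gene, had 0.35 (score 0.160) under the JICD1 label and 1.71 (0.294) with NICD1 in the authors' deposited tables. It was scored in neither comparison, and at 3.28-fold with NICD1 its score was higher than that of 56% of the nearest 300 genes. A pair of annotated genes without a protein, Gm52550 and Gm13400, overlaps its span, as Gm52569 does that of Ptgis and Gm38880 that of Alox5, and whether counting used strand is not stated. Ptgis, the prostacyclin synthase gene, had 1.35 (score 0.179) under the JICD1 label in the authors' deposited table and no ratio with NICD1.

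The leukotriene branch held the lowest ratio. Ltc4s stood in the authors' deposited table at a log2 ratio of -8.06 (score 0.993) under the JICD1 label, 266-fold below control. With NICD1 the authors' deposited table gave -3.86 (score 0.940), 14.5-fold lower, and no score among the 300 genes nearest in size of ratio reached it. Ltc4s is the gene the list was built around, so its size and direction are given as a description. The genes that act before it, Alox5ap and Alox5, had ratios above 0 but were not scored, so no contrast of direction with Ltc4s is read. Alox5ap had 2.59 under the JICD1 label in the authors' deposited table, 6.01-fold higher at a score of 0.653, and 0.21 (score 0.181) with NICD1. These scores were higher than those of 88% and 6.67% of the nearest 300 genes. Alox5 had 1.86 (score 0.201) under the JICD1 label and 2.18 (score 0.225) with NICD1 in the authors' deposited tables. Its control was inferred to be at the lowest value in both comparisons, as described below, so its ratios could only lie above 0.

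Hpgd, which inactivates prostaglandins, stood at a log2 ratio of 1.57 (score 0.184) with NICD1 in the authors' deposited table and had no ratio under the JICD1 label.

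The scores set these ratios apart from those of barely measured genes. A negative ratio that is equal in both comparisons was found for 694 genes of the authors' deposited tables. It was read as both transfected groups sharing one lowest value, or floor, although none is marked in the tables. These genes trace the lower edge of the plot of score against size of ratio. Alox5 lay on that edge in both comparisons, with scores of 0.201 and 0.225 against 0.201 and 0.225 for floor genes of equal ratio, and so did Ptgis under the JICD1 label (0.179 against 0.179) and Hpgd with NICD1 (0.184 against 0.184). The control of these 3 genes was inferred to be at the floor, so their folds are left out. Ltc4s and Ptgs1 lay far above it. Under the JICD1 label their scores of 0.993 and 0.996 stand against 0.858 and 0.703 for floor genes of equal ratio, so neither transfected group was inferred to be at the floor, and their folds are given as deposited. Ptges under the JICD1 label, at a score of 0.160 against 0.147, lay near the edge, and below a log2 of 1 the floor cannot be decided.

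**Figure D2:**
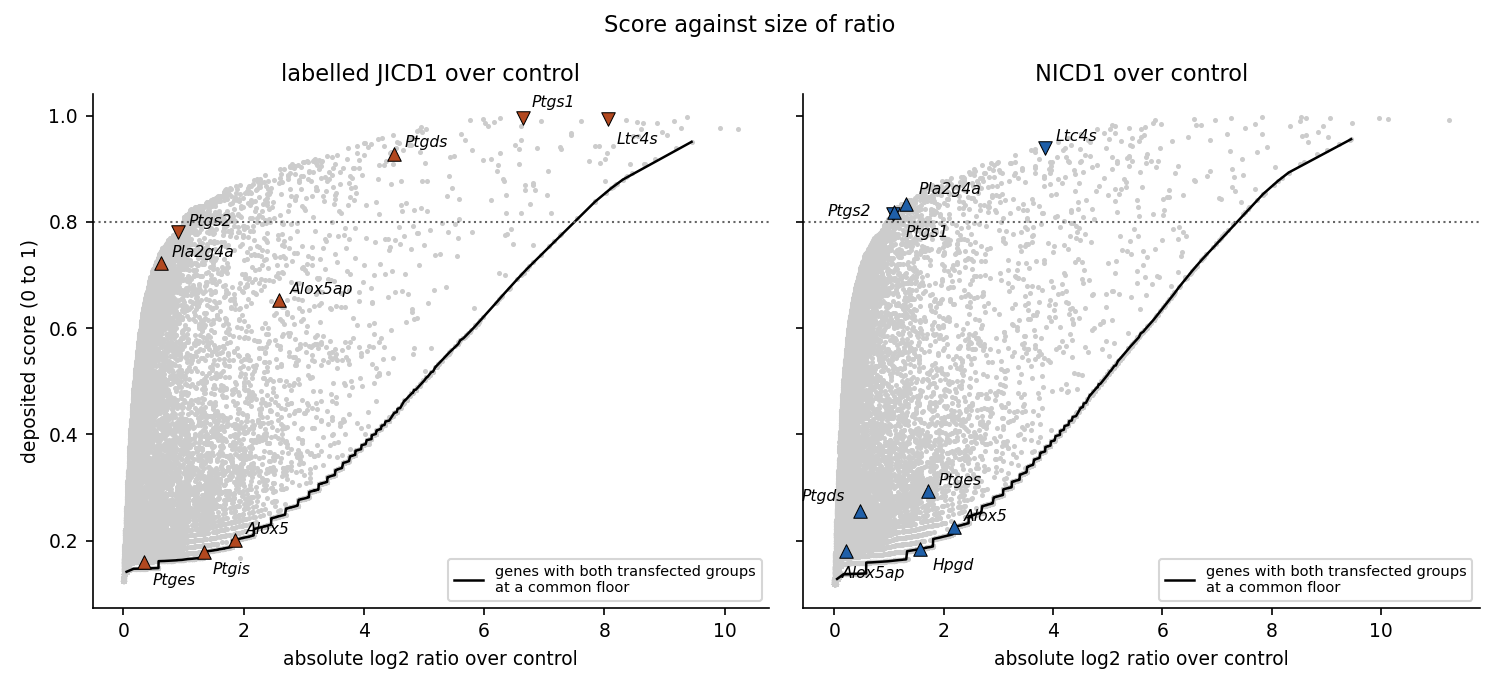
Deposited score against the absolute log2 ratio for every gene (grey) in the JICD1 (left) and NICD1 (right) comparisons. Upward triangles are genes of the list above control, downward ones below it; the dotted line is a score of 0.8 and the black line follows genes with both transfected groups at a common floor. Ltc4s and Ptgs1 lie near the upper edge and Alox5, Ptgis and Hpgd on the lower one.

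The transfected groups were set against each other by subtracting the log2 ratios, in which the shared control cancels; this value has no score. Of the 8 genes with both ratios, 6 were at least 1 apart on the log2 scale. Under the JICD1 label, 2 of them were higher and 4 lower than with NICD1, where 24.2% of 18182 genes differed by as much (10.6% higher and 13.6% lower). The median difference was -1.02, beside 0.04 for all genes. The list was chosen with these ratios in view, so nothing is read from this share or median. Ptgs1 was lowest at -5.57, which is 47.7-fold lower under the JICD1 label than with NICD1. Ltc4s followed at -4.20 (18.4-fold lower), then Ptgs2 at -2.003 (4.01-fold lower) and Ptges at -1.36. Ptgds at 4.03 (16.4-fold higher) and Alox5ap at 2.38 (5.21-fold higher) went the other way. Pla2g4a at -0.68 and Alox5 at -0.32 differed by less than 1. Both cyclooxygenase genes were thus lower under the JICD1 label than with NICD1, and the gene of prostaglandin D2 synthesis was higher.

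The positions of the genes were compared with the values of their neighbours, by gene order in the GRCm38.p6 annotation. Pla2g4a and Ptgs2 are next to each other on chromosome 1, with no protein-coding gene between them. Both were scored higher with NICD1, and under the JICD1 label they lay on opposite sides of 0. Ltc4s on chromosome 11 lies between Mgat4b, an N-glycan branching enzyme gene, and Maml1, which encodes a coactivator of NICD. In the authors' deposited tables Mgat4b had log2 ratios of 0.20 under the JICD1 label and -0.32 with NICD1, and Maml1 had 0.10 and 0.07. Both neighbours of Ltc4s thus lay within 1 of 0. Beside Ptgs1 on chromosome 2, Mrrf had 0.19 under the JICD1 label and -0.16 with NICD1 in the authors' deposited tables, and the olfactory receptor gene on its other side had no ratio. Beside Ptgds on chromosome 2, Paxx had 0.93 (score 0.703) and -0.63 (0.568) in the authors' deposited tables. Of 18 different neighbours outside the list, 11 had ratios, and 2 of these under the JICD1 label and 1 with NICD1 were 1 or more from 0, where 28.9% and 28.7% of all genes were, so nothing is read from these counts. In the authors' deposited tables they were Brinp3 beside Pla2g4a, at 7.85 with a score of 0.943 under the JICD1 label and -1.44 with a score of 0.182 with NICD1, and Medag beside Alox5ap, at -3.75 with a score of 0.672 under the JICD1 label. Tor1b beside Ptges, B4galt5 beside Ptgis, Marchf8 beside Alox5, Uspl1 beside Alox5ap and Cep44 beside Hpgd lay within 1 of 0 in both comparisons.

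**Figure D3:**
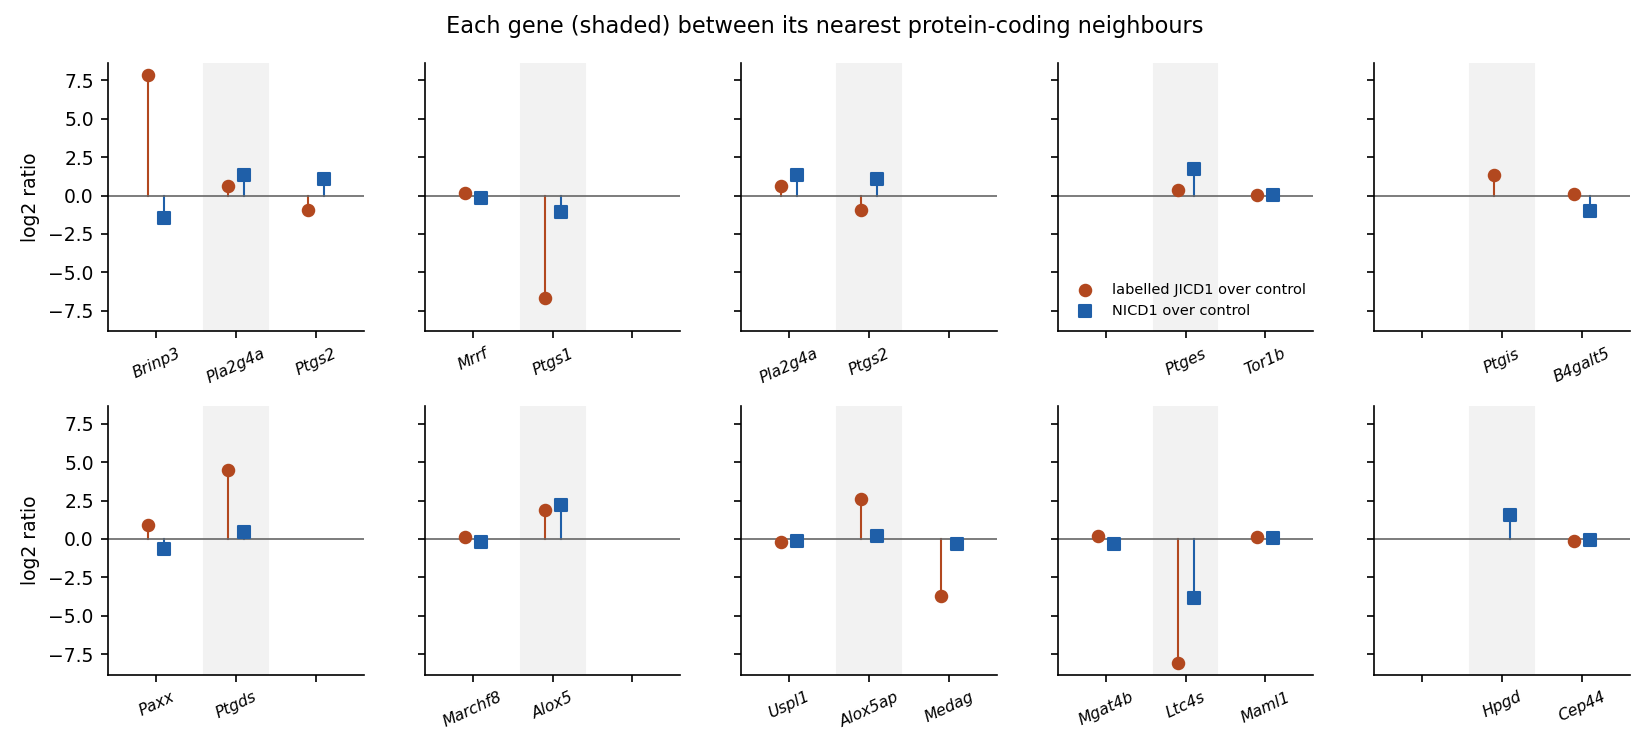
Log2 ratio over control of each gene of the list (shaded) between the nearest protein-coding gene on each side, for the JICD1 label (circles) and NICD1 (squares); positions show order only, and neighbours with no ratio are left blank. The neighbours of Ltc4s lie between -0.32 and 0.20, while Ltc4s lies at -8.06 and -3.86.

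The 3 genes nearest to Ltc4s in the plane of both ratios, among 174 scored in both comparisons, were Scara5, Wnt7b and A630095E13Rik, at Euclidean distances of 0.79, 0.81 and 1.35. Scara5 encodes a scavenger receptor and had -8.84 under the JICD1 label and -3.94 with NICD1 in the authors' deposited tables, its group labelled JICD1 being inferred at the floor. Wnt7b, a Wnt ligand gene, had -8.54 and -3.21 in the authors' deposited tables, with no group at the floor. A630095E13Rik had -8.03 and -5.20 in the authors' deposited tables, and its group labelled JICD1 too was inferred at the floor. Likeness over 2 ratios that share a control is a description of values only.

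The rest of the pathway was read from 7 lists of 83 further genes, with 70 measured in each comparison and 67 in both. Under the JICD1 label, 4 of 70 were scored, all lower, where 2.81% of all genes were scored and 1.74% scored lower, and the median was -0.07. With NICD1, 5 of 70 were scored, 2 higher and 3 lower, where 2.61% of all genes were scored, with a median of 0.03. Nothing particular to the pathway is read from these counts. These medians lie near those of all genes, 0.05 and -0.02.

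In the leukotriene list, Mgst2, whose microsomal enzyme can also make leukotriene C4, was scored lower under both labels, at -3.04 (score 0.844) under the JICD1 label and -3.84 (0.886) with NICD1 in the authors' deposited tables. Mgst2 and Ltc4s were thus both scored lower, and nothing is read from this for leukotriene C4 formation as a step. Mgst3 and Mgst1 of the same list were not scored. In the authors' deposited tables Mgst3 had -0.06 (score 0.234) under the JICD1 label and -0.95 (0.749) with NICD1. Mgst1 had -0.69 (0.670) and 0.45 (0.628). Ggt1, which cuts leukotriene C4 on to D4, had -4.84 (0.618) and -3.00 (0.557) in the authors' deposited tables and was not scored. Lta4h, which takes leukotriene A4 to B4 instead, had 0.07 and -0.11 in the authors' deposited tables. The list median was -0.07 over 9 genes under the JICD1 label and 0.00 over 10 with NICD1.

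Among other phospholipase genes Pla2g7, which breaks down platelet-activating factor, was the scored one, at -2.85 (score 0.906) under the JICD1 label and -1.23 (0.828) with NICD1 in the authors' deposited tables. Of 13 and 14 such genes with a ratio, 7 lay above 0 under the JICD1 label and 6 with NICD1. Among other prostanoid synthases all 6 with a ratio lay below 0 under the JICD1 label, none scored, with a median of -0.53. With NICD1 the list median was -0.17, and Cbr1 was scored. Cbr1 encodes a carbonyl reductase that can turn prostaglandin E2 into F2alpha. It had -0.73 (score 0.181) under the JICD1 label and 5.88 (0.904) with NICD1 in the authors' deposited tables, the second being 58.8-fold higher than control. Under the JICD1 label its score lay near the 0.162 of floor genes of equal ratio. The level of the shared control is unknown, so this fold is given as deposited. Ptges2 and Ptges3, the other prostaglandin E2 synthase genes, had -0.78 (0.723) and 0.05 (0.250) with NICD1 in the authors' deposited tables.

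No receptor gene was scored. Of 12 with a ratio, 7 lay above 0 under the JICD1 label, with a median of 0.44, and of 10 with NICD1 8 lay above 0, with a median of 1.46. In 6 of the 12 and 4 of the 10 a group was inferred at the floor, and without these the medians were -0.30 under the JICD1 label and 0.94 with NICD1. Ptger4, the gene of a prostaglandin E2 receptor that raises cyclic AMP, came closest, with -0.61 (score 0.203) under the JICD1 label and 3.78 (0.796) with NICD1 in the authors' deposited tables. Ptgir, the prostacyclin receptor gene, had -0.81 (score 0.172) under the JICD1 label and 2.72 (0.420) with NICD1 in the authors' deposited tables. Slco2a1, the prostaglandin uptake transporter gene, was the scored gene of transport and inactivation, with 2.01 (score 0.364) under the JICD1 label and 4.74 (0.806) with NICD1 in the authors' deposited tables, the second being 26.8-fold higher than control. Above control with NICD1, the scored genes were thus Pla2g4a and Ptgs2 of the list, with Cbr1 and Slco2a1 beyond it.

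**Figure D4:**
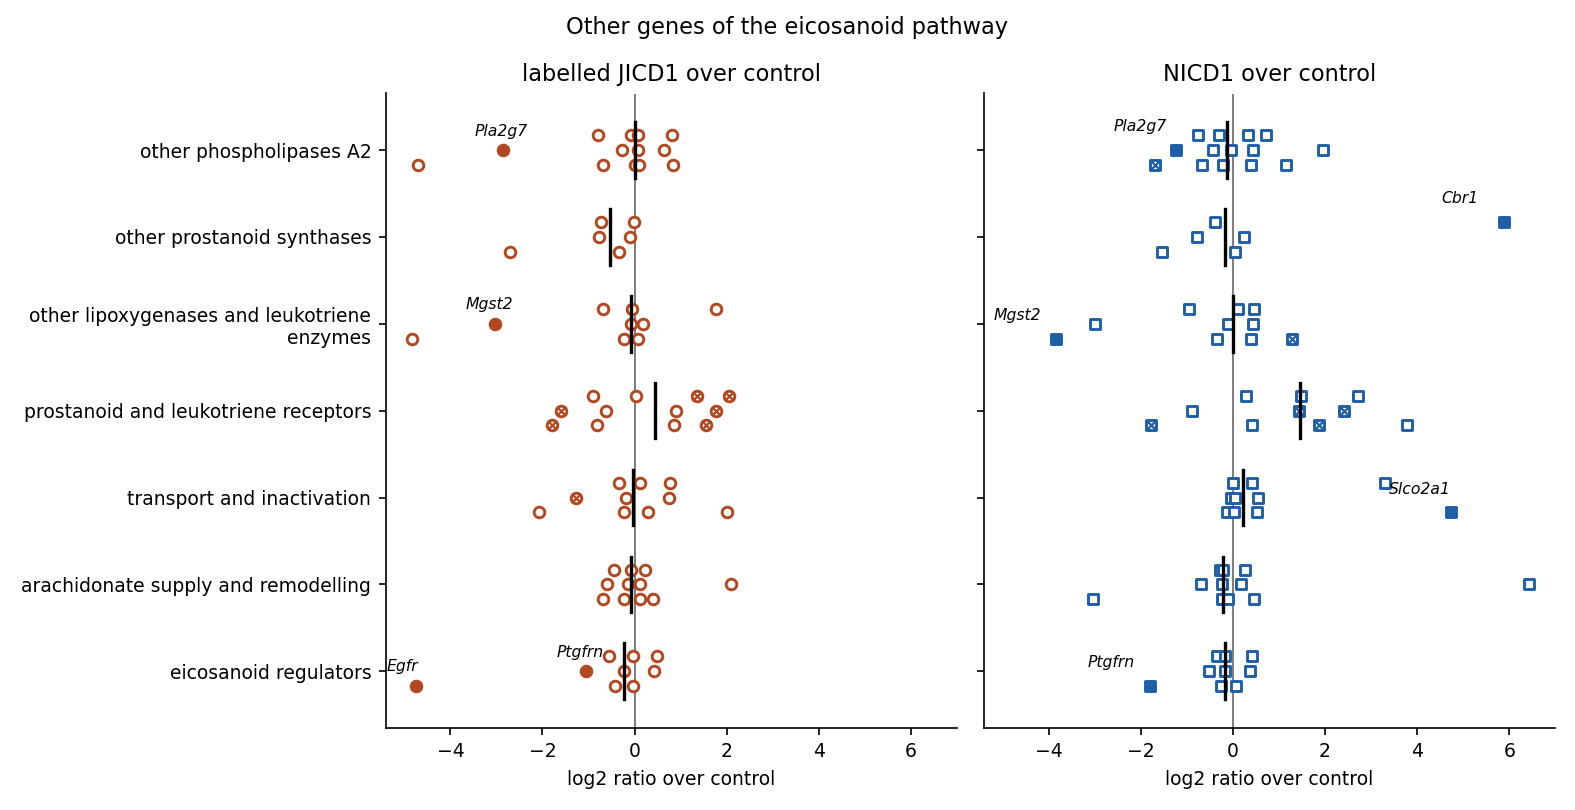
Log2 ratio over control of the further pathway genes by list, for the JICD1 label (left, circles) and NICD1 (right, squares). Filled, named marks have a score of 0.8 or more, crosses mark genes with a group inferred at the floor, and black bars are list medians. Pla2g7, Mgst2 and Ptgfrn are below control in both panels, and Cbr1 (5.88) and Slco2a1 (4.74) stand out with NICD1.

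Markers of other cell types were read beside these genes. Of 11 fibroblast and meningeal markers, Lum, Aldh1a2, Slc6a13 and Igf2 had no ratio. All 7 with a ratio lay below 0 in the libraries labelled JICD1, over -8.67 to -0.33. Of these, 5 were scored, where 1.74% of all genes were scored lower. The lowest was Dcn, whose group labelled JICD1 was inferred at the floor. With NICD1 5 of 7 lay below 0, 2 scored lower and 1 higher, over -5.08 to 1.74. There 0.97% of all genes were scored lower and 1.64% higher. Of all genes, 54.5% lay above 0 under the JICD1 label and 48.5% with NICD1. The scored ones were Dcn, Pdgfrb, Col1a1, Col3a1 and Anpep under the JICD1 label, and with NICD1 Dcn and Col3a1, lower, and Col1a1, higher. The direction of the 7 under the JICD1 label is that of Ltc4s and Ptgs1 and not that of Ptgds, and its part in these results was not tested. Of 13 macrophage and microglia markers, Tyrobp, Adgre1 and Spi1 had no ratio, and the defining leukocyte gene Ptprc had 1.87 with a score of 0.213 under the JICD1 label and 1.18 with a score of 0.178 with NICD1 in the authors' deposited tables. Of that list 7 of 10 lay below 0 under the JICD1 label and 1 of 9 with NICD1, and 1 was scored, Tmem119 at -8.48 under the JICD1 label in the authors' deposited table. Under the JICD1 label the transfected group of Aif1 and the control of Laptm5 were inferred at the floor. The score of Ptprc there lay near the 0.202 of floor genes of equal ratio. No change in macrophages or microglia is read from these values. Of 9 mast cell markers, 3 had a ratio and none was scored, and Kit, Cpa3 and Fcer1a had none. For Cma1 both transfected groups were inferred at the floor. Tpsab1 had -2.12 (score 0.594) under the JICD1 label and 1.79 (0.768) with NICD1 in the authors' deposited tables. No group was inferred at the floor for Tpsab1, and its directions were opposite. Hdc lay below 0, within 1 of it, in both comparisons. Oligodendrocytes are a known source of Ptgds. Of 9 of their markers 6 had a ratio, 3 above 0 under the JICD1 label and 4 with NICD1, none scored. Olig1, Olig2 and Mag had no ratio. Mbp had 2.82 (score 0.545) under the JICD1 label and 2.48 (0.505) with NICD1 in the authors' deposited tables. Cnp had -4.60 (0.758) and 0.34 (0.337) there. For Sox10 both transfected groups were inferred at the floor. The part of oligodendrocytes in the Ptgds ratios was not tested. No endothelial marker was scored among 5 with a ratio. Of the 11 astrocyte markers with a ratio, 7 lay below 0 under the JICD1 label, with Clu scored, and 8 with NICD1, with Clu and Sox9 scored. The levels behind these ratios are not in the tables.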

How the data were processed

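Total RNA of 9 libraries, 3 per group, was sequenced, per the labels. The submitters' processing notes name Bowtie2, BWA and mm9 without saying what each was used for; the counting of reads and the pooling of libraries within a group are not stated there. Per the file headers, each of the authors' 2 deposited tables holds a log2 ratio of a transfected group over control and a score called Probability, which runs from 0 to 1, has no stated method and is not a p-value. The tables held 0 unused numeric columns. They hold no value per library, so the replicate tests that counts would allow, standard errors and left-out libraries could not be computed, and depth is unknown.

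Members and lists were chosen with earlier results of these data known. Genes were matched by symbol, otherwise by gene ID or an older symbol, through NCBI RefSeq (GRCm38.p6) and GENCODE names. Pla2g16 (Plaat3) was matched by an older name, and Ptgdr2, listed under the older symbol Gpr44, by gene ID. A gene was called scored at 0.8. A group was inferred at the floor where the absolute log2 ratio was at least 1 and the score lay within 0.002 (0.01 above a log2 of 6) of that of the 694 genes with equal negative ratios in both tables (tolerance 1e-06); 1 gene had an equal positive ratio. On simulated data the calls made were tested, and the groups missed were not. The simulation assumed a floor and a score of its own, so it cannot show whether the calls hold for the deposited score. Text names all 10 members, the scored genes of each list with a few others, the 3 genes nearest to the largest member and each member's nearest neighbours that had a ratio. Unscored genes of the lists were named after their values were seen. Tables were made with Python 3.11.15, pandas 2.3.3 and numpy 2.4.6 and figures with matplotlib 3.10.9.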

Additional observations from a re-analysis of the deposited data

How the results depend on the processing

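The tables hold no library values, so leaving out a replicate was not run. No paired analysis was possible because the columns carry no replicate. With a score of 0.7 in place of 0.8, 5 members were scored under the JICD1 label in place of 3, and with 0.9, 1 with NICD1 in place of 4. By the tables' own symbols only, which matches 3 members, 0 were scored under the JICD1 label and 1 with NICD1. Under the JICD1 label the member median of 0.63 became 0.59 after the all-gene median (0.05) was subtracted, 0.35 without members with a group at the floor and 0.84 by symbols only. With NICD1 that of 1.09 became 1.11 and 0.47 under the first 2 of these, with an all-gene median of -0.02. Requiring an absolute log2 ratio of 1 as well changed neither count, and the count of 6 members differing between the transfected groups was 6 after centring, 7 at 0.5 and 5 at 2. Of 18 single member ratios, 0 changed sign after centring. None could have, because the medians subtracted were smaller than the smallest ratio, 0.21 for Alox5ap with NICD1. Floor calls are inferences from the score.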

Other observations

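Of 11 measured genes of arachidonate supply and remodelling, 1 had an absolute log2 ratio of 1 or more under the JICD1 label and 2 with NICD1, none scored, where 28.9% and 28.7% of all genes were that far from 0. These were Mgll in both comparisons and Faah with NICD1, which act on endocannabinoids, lipids whose breakdown also frees arachidonic acid. Mgll, the monoacylglycerol lipase gene, had 2.10 (score 0.231) under the JICD1 label and 6.42 (0.773) with NICD1 in the authors' deposited tables. The second is 85.8-fold higher than control, as deposited. Under the JICD1 label its score lay near the 0.208 of floor genes of equal ratio, and the level of the shared control is unknown. Faah, the fatty acid amide hydrolase gene, had -0.69 (score 0.412) under the JICD1 label and -3.03 (0.705) with NICD1 in the authors' deposited tables. Ephx2, which hydrolyses epoxides of arachidonic acid, had -2.08 (score 0.261) under the JICD1 label and 3.31 (0.646) with NICD1 in the authors' deposited tables.

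Among regulators, Ptgfrn, named for its negative effect on a prostaglandin F2alpha receptor, was scored lower under both labels, at -1.05 under the JICD1 label and -1.81 with NICD1 in the authors' deposited tables. Egfr, a growth factor receptor gene, had -4.76 with a score of 0.958 under the JICD1 label in the authors' deposited table and -0.51 with a score of 0.663 with NICD1. Anxa1, which encodes a protein that restrains phospholipase activity, had -0.03 and 0.36 in the authors' deposited tables.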
